A study of Mus musculus with 2 samples.

Results

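The interferon response genes are 38 genes chosen by name for their place in the antiviral program. They were looked up in a table of accessible chromatin regions of mouse liver. Regions were matched by the symbol that the authors give for the closest transcription start site (TSS), or by the Ensembl identifier where the symbol was blank. This gave 92 of 69549 distinct regions for 37 of the 38 genes, and none was matched to *Oas1a*. ATAC-seq measures accessibility with the Tn5 transposase, which cuts open DNA and leaves sequencing adaptors in it, so that more reads over a stretch mean more open chromatin. One library was made from C57BL/6 mice of the genotype *Mettl3* flox/flox and the other from *Mettl3*-HKO mice, which are *Mettl3* flox/flox and also *Alb*-Cre+/-, with Cre driven by the albumin promoter of hepatocytes. All mice were 8 weeks old and on normal chow, and each library was a pool of liver from 4 animals. Because the controls carry no Cre, the loss of *Mettl3* and the presence of Cre cannot be told apart, and with 1 library per group no spread between mice can be given. Each ratio therefore compares 2 libraries, and its interval covers counting error only.

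Interferons are secreted signals of infection. Type I and type III interferons activate a complex that contains STAT2 and IRF9 and binds the interferon-stimulated response element (ISRE) in promoters, whereas interferon gamma acts mainly through gamma-activated sites (GAS). The genes so induced encode sensors of viral nucleic acid, enzymes and binding proteins that block viral replication, GTPases that attack the vacuoles of intracellular pathogens, and the peptide-loading machinery of MHC class I. In liver they are expressed in hepatocytes and, often at a higher basal level, in sinusoidal endothelial cells and Kupffer cells, the resident macrophages. Bulk liver cannot separate a change within a cell type from a change in the share of that cell type.

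Of the 37 genes, 32 had a promoter region, meaning one whose centre lay within 1 kb of the TSS. Another 5 had only distal regions. Several of these promoters hold the ISRE within the open stretch. RefSeq promoter windows on GRCm38, from 250 bases before to 50 bases after the start, were found for 31 members, and for 22 of these the window overlapped the promoter region. The ISRE core, GAAA and GAAA with any 2 bases between, was searched on both strands, where the other strand reads TTTC and TTTC. It was in 8 of these 22 windows, or 36.4%, against 2.76% of the windows of all 7525 genes with a RefSeq window over the promoter region. Whether a match induces its gene was not tested. The stretches below are those of the 7 members with the match upstream of the start, printed 5′ to 3′ on the strand of the gene with the ISRE core in capitals.
Stat2, chr10:128270256-128270305, plus strand: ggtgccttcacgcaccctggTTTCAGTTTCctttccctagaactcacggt
Ifit3, chr19:34583353-34583436, plus strand: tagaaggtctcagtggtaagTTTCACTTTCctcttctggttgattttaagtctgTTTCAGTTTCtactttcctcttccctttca
Rsad2, chr12:26456543-26456592, minus strand: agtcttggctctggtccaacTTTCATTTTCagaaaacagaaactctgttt
Bst2, chr8:71537567-71537622, minus strand: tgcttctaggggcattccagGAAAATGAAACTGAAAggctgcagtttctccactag
Gbp2, chr3:142620584-142620633, plus strand: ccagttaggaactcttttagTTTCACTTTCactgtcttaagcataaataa
Igtp, chr11:58199502-58199551, plus strand: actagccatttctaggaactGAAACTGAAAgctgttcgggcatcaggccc
B2m, chr2:122147528-122147577, plus strand: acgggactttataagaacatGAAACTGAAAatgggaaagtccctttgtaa

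The distance from the ISRE core nearest the start to the closest summit of the accessible region was 5 bp in *Rsad2*, 11 bp in *Igtp*, 43 bp in *B2m* and 87 bp in *Bst2*. It was 119 bp in *Ifit3*, 179 bp in *Stat2* and 214 bp in *Gbp2*. In *Ifih1* the match lies just inside the transcribed sequence, 4 bp from a summit. The other member windows searched, among them those of *Ifit2*, *Oasl1*, *Gbp3* and *Cmpk2*, do not hold these letters, which says nothing of variant elements or of elements farther away. The GAS core, TTC and GAA with any 3 bases between, was in 6 of the 22 member windows and in 6.87% of those of all 7525 genes. Of the windows with both, those of *Bst2* and *Igtp*, 1 had them overlapping. *Usp18*, *Zbp1*, *Ifi27*, *Mx1*, *Mx2*, *Parp9* and *Parp14* had no entry in the RefSeq table.

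The libraries had totals of 52826202 reads for *Mettl3* flox/flox and 58038305 for *Mettl3*-HKO, of which 31.7% and 22.3% lay in the regions. On the scale set by these totals, called here the authors' scale, the log2 ratio, with *Mettl3* flox/flox as the denominator, had a median of −0.38 over all regions and −0.56 over all 14387 promoter regions. Ratios of members are given on this scale and set against that promoter median of −0.56.

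The interferon response promoters were divided between higher and lower ratios, and most lay above the median of all promoter regions. Their median log2 ratio was −0.0028, with 16 of 32 above 0, whereas 16.1% of all promoter regions were above 0. The highest ratios belonged to *Tap1*, *Oasl2*, *Ifi27*, *Mx1*, *Zbp1*, *Oasl1* and *Rsad2*, and the lowest to *Igtp*, *Cmpk2*, *Dtx3l*, *Ifih1* and *Trim25*. The 95% Clopper-Pearson interval of the ratio lay wholly above the promoter median for 22 members and wholly below it for 3. Over all promoter regions these shares were 29.0% above and 29.5% below. By a fold rule on the authors' scale, a gain of 2-fold or more in *Mettl3*-HKO was found for 3 members and a loss of that size for 0, beside 4.07% and 16.3% of all promoter regions. The count of gains was 0 with 10 reads added to each count in place of 1, beside 2.32% of all promoter regions. It was 1 among promoters with a peak in both libraries, beside 0.742% of all such regions. After centring on the promoter median the counts were 11 and 0, beside 9.00% and 2.72%. Against 0 on the authors' scale, the interval was above for 11 members and below for 12, beside 8.08% and 72.4%.

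**Figure D1:**
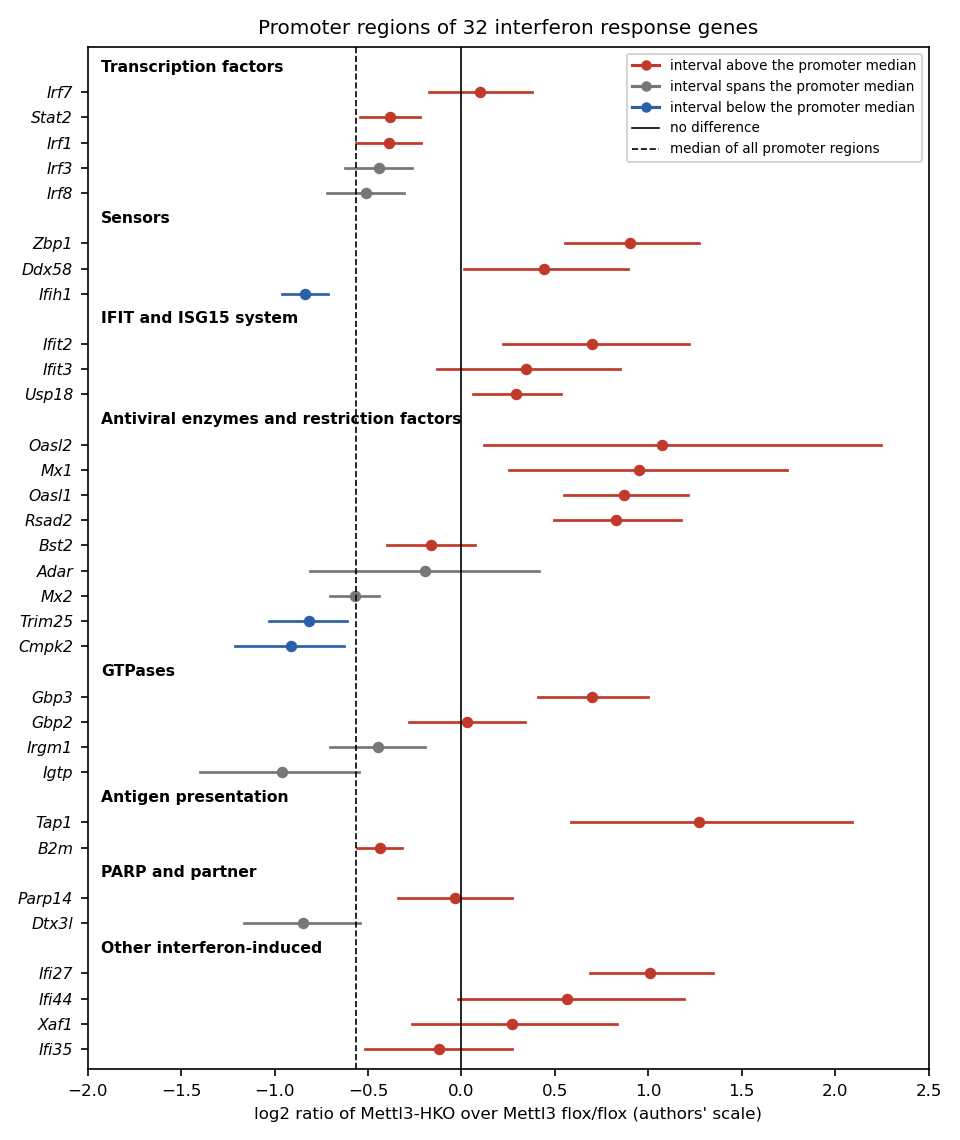
The log2 ratio (*Mettl3*-HKO to *Mettl3* flox/flox) is plotted on the x axis for the strongest promoter region of each of 32 genes, ordered within groups by role, with bars for 95% Clopper-Pearson intervals of counting error. The dashed line is the median of all promoter regions (−0.56), which 22 intervals exceed and 3 fall short of.

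Which regions are in the table bears on these counts. A region is listed where a peak was called in either library, so regions with a peak in the *Mettl3*-HKO library alone were in part selected for a high count there. The strongest promoter regions of *Oasl2*, *Mx1* and *Tap1* were of this kind, 3 of the 32, beside 8.40% of all promoter regions. That of *Adar* had a peak in the *Mettl3* flox/flox library alone. In the 28 member promoters with a peak in both libraries the median log2 ratio was −0.078, against −0.58 for the 11991 promoter regions of that kind. The interval was above this −0.58 in 19 of the 28, beside 27.3% of all such regions, and below it in 3, beside 29.7%.

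The depth of a region also moved with its ratio. Ratios were higher in weak promoter regions, with a median of −0.034 in the weakest quintile of all promoter regions by summed RPM (reads scaled to the library total) and −0.64 in the strongest. Of the 32 member promoters, 21 were in the weaker 2 quintiles. Within each quintile, members were set against the median of all promoter regions of that quintile, and 26 of 32 lay above it. These were 7 of 8 in the weakest quintile, where the member median was 0.63, then 10 of 13, with a median of 0.100 against −0.48, 4 of 5, 3 of 3, and 2 of 3 in the strongest. The 8 in the weakest quintile include *Oasl2*, *Mx1* and *Tap1*, listed through a peak in the *Mettl3*-HKO library alone and so in part selected for a high ratio. They also include *Adar*, with a peak in the *Mettl3* flox/flox library alone. Per kilobase of region, the median member promoter had 4.84 RPM in both libraries, whereas the median over all promoter regions was 9.43 RPM in *Mettl3* flox/flox and 6.12 RPM in *Mettl3*-HKO.

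**Figure D2:**
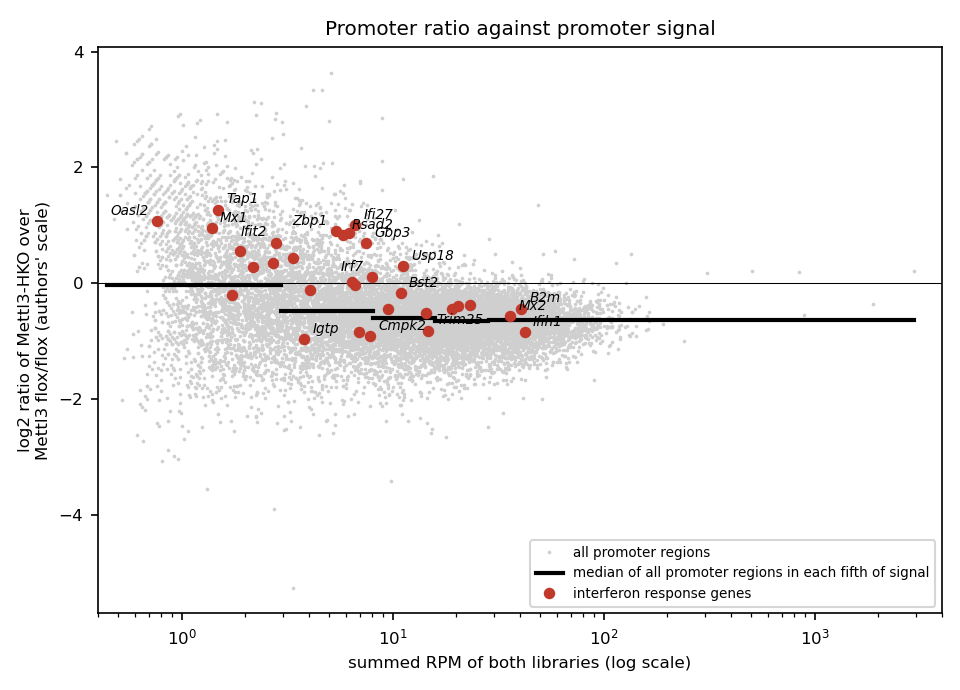
Each grey point is 1 of 14387 promoter regions, with the summed RPM of both libraries on a log x axis and the log2 ratio on the y axis, and red points are the 32 members. Black bars are the medians of all promoter regions in each quintile of signal, from −0.034 in the weakest to −0.64 in the strongest, and 26 of the 32 members lie above the bar of their quintile.

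Among the sensors, *Zbp1*, which binds Z-form nucleic acid and triggers necroptosis, was higher in the *Mettl3*-HKO library at every one of its 3 promoter regions. The strongest, on chromosome 2 from 173219287 to 173219923 centred at −707 bp from the TSS, had 98 counts in *Mettl3* flox/flox and 202 in *Mettl3*-HKO (log2 ratio 0.90, interval 0.55 to 1.27). The region that reaches exon 1 went from 64 to 185 counts (log2 ratio 1.38, interval 0.98 to 1.83), and the one in intron 1 from 70 to 226 (1.54, interval 1.16 to 1.96). Its distal region 31872 bp downstream had 400 and 289 counts (−0.60). *Ddx58*, which encodes the RNA sensor RIG-I, had a promoter region in intron 1 with 74 and 111 counts (0.44, interval 0.012 to 0.89), and a second over its start with 81 and 100. *Ifih1*, which encodes MDA5, a sensor of long double-stranded RNA, went the other way. Its region on chromosome 2 from 62645541 to 62646611, centred in exon 1, had 1425 and 875 counts (−0.84, interval −0.96 to −0.72), below the promoter median. Per kilobase it was the most accessible member promoter of the *Mettl3* flox/flox library, at 25.2 RPM.

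The IFIT proteins include IFIT1, which binds viral RNA that lacks the host cap methylation. USP18 removes the ubiquitin-like ISG15 from its targets and dampens interferon receptor signalling. All 3 measured promoters of this group had intervals above the promoter median, as had 29.0% of all promoter regions. The regions of *Ifit2* and *Ifit3* were in the weakest quintile by signal, where the median of all promoter regions was −0.034. The *Ifit3* interval given below includes that value. The *Ifit2* region over its start on chromosome 19, from 34550465 to 34550873, had 55 counts in *Mettl3* flox/flox and 99 in *Mettl3*-HKO (log2 ratio 0.70, interval 0.22 to 1.22). The *Ifit3* region, which holds the pair of ISRE cores printed above, had 62 and 87 counts (0.35, interval −0.13 to 0.85), a difference from 0 that is within counting error. *Usp18* had 264 and 356 counts (0.29, interval 0.062 to 0.53). *Isg15* and *Ifit1* had no region of their own within 1 kb. The region that covers the start of *Ifit1*, from 34640645 to 34640952 on chromosome 19, is assigned by the table to its neighbour *Ifit1bl2*, whose TSS is closer, and it had 22 and 51 counts (1.04, interval 0.33 to 1.87). The only *Isg15* region is centred 3198 bp downstream of the TSS and had 790 and 613 counts (−0.50).

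Antiviral enzymes and restriction factors were split. The OAS-like genes *Oasl1* and *Oasl2*, relatives of the enzymes that make 2′-5′ oligoadenylates to activate RNase L, were both higher. *Oasl1* had 115 and 232 counts at its start on chromosome 5 from 114922914 to 114923492 (log2 ratio 0.87, interval 0.55 to 1.21), and 73 and 155 counts at a second region centred at −751 bp (0.94, interval 0.54 to 1.37). *Oasl2* had 12 and 29 counts (1.07, interval 0.12 to 2.24), few enough to leave a wide interval. *Rsad2* encodes viperin, a radical SAM enzyme that makes a chain-terminating nucleotide. Its region on chromosome 12 from 26456333 to 26456761, centred at −115 bp with the ISRE core 5 bp from a summit, had 110 and 215 counts (0.82, interval 0.49 to 1.18). *Cmpk2*, the kinase gene beside *Rsad2* that supplies the nucleotide, had its region from 26469120 to 26470156, centred at −871 bp from the authors' TSS, with 268 and 156 counts (−0.91, interval −1.21 to −0.63). The intervals of these neighbours lie on opposite sides of 0 and of the promoter median.

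The dynamin-like GTPases *Mx1* and *Mx2* also differed. *Mx1* had 24 and 52 counts in a region centred at −614 bp (log2 ratio 0.95, interval 0.26 to 1.74), and *Mx2* had 1135 and 839 counts (−0.57, interval −0.70 to −0.44), which is the promoter median within counting error. *Bst2*, encoding tetherin, which holds budding virions at the membrane, had 303 and 297 counts (−0.16, interval −0.40 to 0.071). *Trim25*, the ubiquitin ligase that activates RIG-I, had 493 and 307 counts (−0.82, interval −1.03 to −0.61), and *Adar*, the adenosine-to-inosine RNA editor, had 48 and 46 (−0.20, interval −0.81 to 0.42). Both *Bst2* and *Trim25* were called apart from the promoter median, the former above and the latter below it, while the *Adar* interval spanned it.

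Of 5 transcription factors of the pathway with a promoter region, 3 had intervals above the promoter median and the others spanned it. *Irf7*, the amplifier of type I interferon production, was the only one with a ratio above 0, with 202 and 238 counts (log2 ratio 0.100, interval −0.18 to 0.38), and its interval was above the promoter median. *Stat2* had 691 and 583 counts (−0.38, interval −0.54 to −0.22) and *Irf1*, the early interferon gamma target, 606 and 508 (−0.39, interval −0.5632 to −0.22), both with intervals above the promoter median, *Irf1* by the smallest margin of the members. *Irf3*, which is activated by the sensors, had 577 and 466 counts, and *Irf8*, a factor of the myeloid lineage, 444 and 342, and their intervals spanned the promoter median. *Irf2* and *Irf9* had no region within 1 kb of the authors' TSS. The *Irf9* region nearest to it, centred at −1688 bp, had 471 and 479 counts (−0.11).

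Among the GTPases, *Gbp3* was higher, with 150 and 268 counts on chromosome 3 from 142559724 to 142560948 (log2 ratio 0.70, interval 0.41 to 0.9996). *Gbp2*, in the same cluster of guanylate-binding proteins, had 166 and 186 counts (0.027, interval −0.28 to 0.34). The immunity-related GTPases among the members, *Igtp* and *Irgm1*, did not have higher ratios. *Igtp*, whose ISRE core lies 24 bases from the start, had 132 and 74 counts there (−0.96, interval −1.40 to −0.55) and 69 and 25 counts in intron 1 (−1.56, interval −2.32 to −0.92). *Irgm1* had 288 and 232 counts (−0.45) at its strongest promoter region and 322 and 189 (−0.90, interval −1.17 to −0.64) at the one over exon 1. Both families consist of similar copies, so the assignment of reads among them is uncertain.

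*Tap1* and *B2m* serve MHC class I, the former as a subunit of the peptide transporter and the latter as the light chain. The *Tap1* region, on chromosome 17 from 34188091 to 34188354 in exon 1, had 22 and 60 counts (log2 ratio 1.27, interval 0.59 to 2.09), the highest ratio of the 32. It lies downstream of a stronger region, from 34187006 to 34188023, that covers the *Tap1* start but is assigned to *Psmb9*, the immunoproteasome gene transcribed away from it. That region had 475 and 487 counts (−0.100, interval −0.29 to 0.086), so the start itself showed a smaller difference than the *Tap1* region. *B2m* had 1231 and 998 counts (−0.44, interval −0.56 to −0.32).

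*Parp14*, *Parp9* and *Dtx3l* lie together on chromosome 16 and encode ADP-ribosyltransferases and the ubiquitin ligase partner of PARP9. *Parp14* had 175 and 188 counts (log2 ratio −0.033, interval −0.34 to 0.27). The start shared by *Dtx3l* and *Parp9*, from 35938449 to 35939220 and assigned to *Dtx3l*, had 233 and 142 counts (−0.85, interval −1.16 to −0.54), and a second region, at −615 bp from the *Dtx3l* start, had 129 and 127. The remaining members are induced genes with less settled functions. *Ifi27*, a mitochondrial protein and a common marker of interferon exposure, had 3 promoter regions. The strongest, on chromosome 12 from 103434010 to 103434397, had 115 and 255 counts (1.01, interval 0.69 to 1.34), the one in intron 1 had 35 and 93 (1.25, interval 0.70 to 1.88) with a peak in *Mettl3*-HKO alone, and the one at −651 bp had 53 and 80 (0.45, interval −0.060 to 0.99). *Ifi44* had 39 and 64 counts (0.56), *Xaf1* 51 and 68 (0.27) and *Ifi35* 110 and 111 (−0.12), with intervals that include 0 and lie above the promoter median. A second *Xaf1* region in intron 1 had 22 and 71 counts (1.51, interval 0.85 to 2.32), with a peak in *Mettl3*-HKO alone.

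The member promoters with a window to examine were poor in CpG. *Tap1*, *Oasl2*, *Ifi27*, *Mx1* and *Zbp1*, which had the highest ratios of all members, had no RefSeq window over the promoter region. *Ddx58*, *Usp18*, *Parp14*, *Irgm1* and *Mx2* had none either. Over the 22 members with a RefSeq window on the promoter region, the ratio of observed to expected CpG had a median of 0.395, against 0.785 over all 7525 genes, and 14 of the 22 fell in the lowest quintile of all genes. In that quintile the members had a median log2 ratio of 0.19, with a range from −0.96 for *Igtp* to 0.87 for *Oasl1*, against −0.55 for all 1505 genes of the quintile, and 9 of the 14 were above 0, or 64.3%, beside 21.5% of those genes. The 8 members outside it, *B2m*, *Irf3*, *Trim25*, *Dtx3l*, *Ifih1*, *Stat2*, *Irf1* and *Irf8*, had ratios from −0.85 to −0.38, and 93.6% of all genes outside that quintile were likewise below 0. Over all genes the medians of the 5 quintiles differed little, from −0.62 to −0.55. CpG content also moved with signal, since the median RPM of the *Mettl3* flox/flox library was 5.34 in the lowest quintile and 13.3 in the highest.

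**Figure D3:**
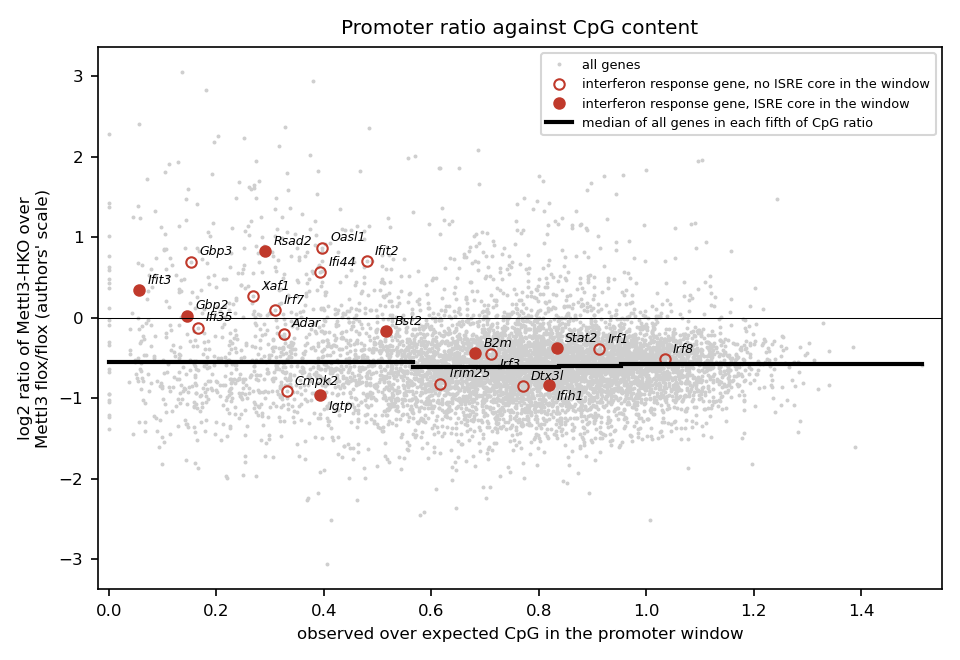
The observed over expected CpG ratio of the RefSeq promoter window is on the x axis and the log2 ratio of the promoter region on the y axis, with 7525 genes in grey, members as red circles, filled where the window holds an ISRE core, and black bars for the median of all genes in each quintile. Of the 22 members plotted, the 9 with a ratio above 0 lie in the lowest quintile of CpG, where 21.5% of all genes are above 0, against 6.4% in the other quintiles. The other members, among them *Tap1*, *Oasl2*, *Ifi27*, *Mx1* and *Zbp1* with the highest ratios, had no RefSeq window over the promoter region and are not shown.

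Members with and without an ISRE core had overlapping ratios. The 8 members with a match had a median log2 ratio of −0.27 and the 14 without −0.16. This comparison leaves out the members without a RefSeq window over the promoter region, among them *Tap1*, *Oasl2*, *Ifi27*, *Mx1* and *Zbp1*, the highest in ratio. Across the genes outside the list, the 200 with a match had a median of −0.55 and the 7303 without −0.59, and 15.5% against 9.16% had a ratio above 0. These windows differed in signal as well, with a median of 8.31 RPM in *Mettl3* flox/flox with a match and 10.3 RPM without. In the weakest quintile by signal, 53.6% of the 28 genes with a match and 47.2% of those without were above 0. The shares were 29.2% and 19.2% in the second quintile, 11.9% and 4.80% in the next, and between 1.03% and 2.70% in the remaining ones.

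A list of 75 other genes of the interferon pathway gave 58 promoter regions, with a median log2 ratio of −0.42. Their interval was above the promoter median in 25, or 43.1%, and below it in 10, beside the 29.0% and 29.5% of all promoter regions. The receptors, their signalling proteins and inhibitors of that signalling had 12 promoter regions with a median of −0.60 and 0 above 0, where 16.1% of all promoter regions were. *Socs1*, the feedback inhibitor of JAK kinases, was the highest of them at −0.029, with 415 and 447 counts. The other guanylate-binding and immunity-related GTPases had 7 promoter regions with a median of 0.18. *Gbp7* had 343 and 608 counts (0.69, interval 0.50 to 0.89) and *Gbp9* 102 and 172 (0.61, interval 0.26 to 0.99), whereas *Irgm2* had 290 and 192 (−0.73, interval −1.001 to −0.46) and *Tgtp1* 34 and 18 (−1.02, interval −1.96 to −0.19). *Ifi47*, also an immunity-related GTPase, had 24 and 34 (0.35, interval −0.43 to 1.18). *Gbp6* had 158 and 197 (0.18) and *Gbp4* 57 and 59 (−0.087). Other genes at the upper end were *Sp100*, with 17 and 32 counts (0.74, interval −0.11 to 1.72), and *Mb21d1*, which encodes the DNA sensor cGAS, with 86 and 147 (0.63, interval 0.24 to 1.04). At the lower end were *Irf4*, with 76 and 29 counts (−1.50), *Psmb10*, an immunoproteasome subunit, with 97 and 48 (−1.14), and *Trim21*, the cytosolic antibody receptor, with 375 and 196 (−1.07). The medians of the other groups were −0.42 for 10 sensors and adaptors, −0.35 for 19 effectors and −0.42 for 10 antigen presentation genes.

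Markers of liver cell types were read from the same table. Of 8 endothelial markers, 7 had a promoter region, with 153 counts in all in *Mettl3* flox/flox and 400 in *Mettl3*-HKO and a median log2 ratio of 1.60, and *Pecam1* had none. All 7 were in the weakest quintile of signal, where ratios run higher, and 5 had a peak in the *Mettl3*-HKO library alone and so were in part selected for a high count there. The others were *Clec4g*, with a peak in both libraries and 48 and 79 counts (0.57), and *Eng*, with 23 and 28 (0.14). Of 8 macrophage markers only *C1qa* had a promoter region, with 8 and 40 counts and a peak in *Mettl3*-HKO alone, and of 8 lymphocyte markers none did. The 8 hepatocyte markers had 4072 and 2839 counts and a median of −0.56, none in the weakest quintile, with *Alb* at 0.015 and *Ass1* at −1.57. Of 8 dendritic cell markers 4 had one, 2 of them members (*Bst2* and *Irf8*), and their median was −0.49. The part of these markers' cells in the ratios of the interferon response genes was not tested.

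Beyond the promoters, 49 distal regions, from 1346 to 60058 bp from the TSS, were closest to 26 of the genes. Their median log2 ratio was −0.18, against −0.27 for all 55162 distal regions. Gains of 2-fold or more in *Mettl3*-HKO were found in 10 of the 49, or 20.4%, beside 15.6% of all distal regions, and losses of that size in 6, or 12.2%, beside 18.8%. These shares are near the background. The peak filter bears on them as well. Of the 49, 15 had a peak in the *Mettl3*-HKO library alone, beside 24.9% of all distal regions. Another 11 had one in the *Mettl3* flox/flox library alone, beside 19.1%, and 23 had one in both. All 10 with gains had a peak in the *Mettl3*-HKO library alone. Among the 23 with a peak in both libraries 0 had a gain and 2 a loss of that size, beside 3.76% and 15.7% of all such distal regions, and the median log2 ratio was −0.36. The values below are therefore a description of listed regions, and the closest gene need not be the one a region acts on. On chromosome 16, 3 of 4 distal regions assigned to *Mx1* lie within introns of *Bace2*, and they had 8 and 206 counts (log2 ratio 4.39, interval 3.55 to 5.78, from 97419018 to 97419431), 28 and 114 (1.85, interval 1.28 to 2.54) and 17 and 59 (1.60, interval 0.86 to 2.53). The fourth, outside any gene, had 40 and 31. An upstream region of *Xaf1* had 11 and 43 counts (1.74, interval 0.85 to 2.94), again with a peak in *Mettl3*-HKO alone, as had the 3 in *Bace2*. The 2 regions of *Irf2*, both upstream, differed in direction, with 29 and 95 counts at −3540 bp (1.54, interval 0.96 to 2.23, peak in *Mettl3*-HKO alone) and 576 and 348 at −10151 bp (−0.86, interval −1.06 to −0.67). In the *Ifit* cluster, the 2 distal regions assigned to *Ifit2* had 29 and 65 counts (1.002) and 6 and 24 (1.70), both with a peak in *Mettl3*-HKO alone, and the 2 of *Ifit3* had 16 and 46 (1.33, interval 0.54 to 2.31, peak in *Mettl3*-HKO alone) and 45 and 73 (0.55, interval 0.0068 to 1.13), while the 5 regions assigned to *Ifit1* had ratios from −1.32 to 0.034.

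The lowest distal ratios were inside the member genes *Ddx58*, *Ifih1* and *Mx2* and at a region closest to *Ifit1*. Intron 9 of *Ddx58* held a region with 544 and 241 counts (log2 ratio −1.31, interval −1.54 to −1.09) and another with 74 and 31 (−1.36, interval −2.05 to −0.77), although both promoter regions of *Ddx58* had ratios above 0. Intron 3 of *Ifih1* had 76 and 34 counts (−1.27, interval −1.92 to −0.69) and intron 8 of *Mx2* 53 and 25 (−1.19, interval −1.97 to −0.51). These, and the weaker of the *Ddx58* regions, had a peak in the *Mettl3* flox/flox library alone. A region in *Slc16a12* that is closest to *Ifit1* had 192 and 84 counts (−1.32, interval −1.72 to −0.95). With the ratios centred on that of the median region, 0 of the 49 were 2-fold lower, beside 8.65% of all distal regions. The 7 regions of *Trim25* ran from −0.82 at the promoter to 1.46 in the 3′ UTR, where 44 and 135 counts were found and a peak was called in *Mettl3*-HKO alone.

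**Figure D4:**
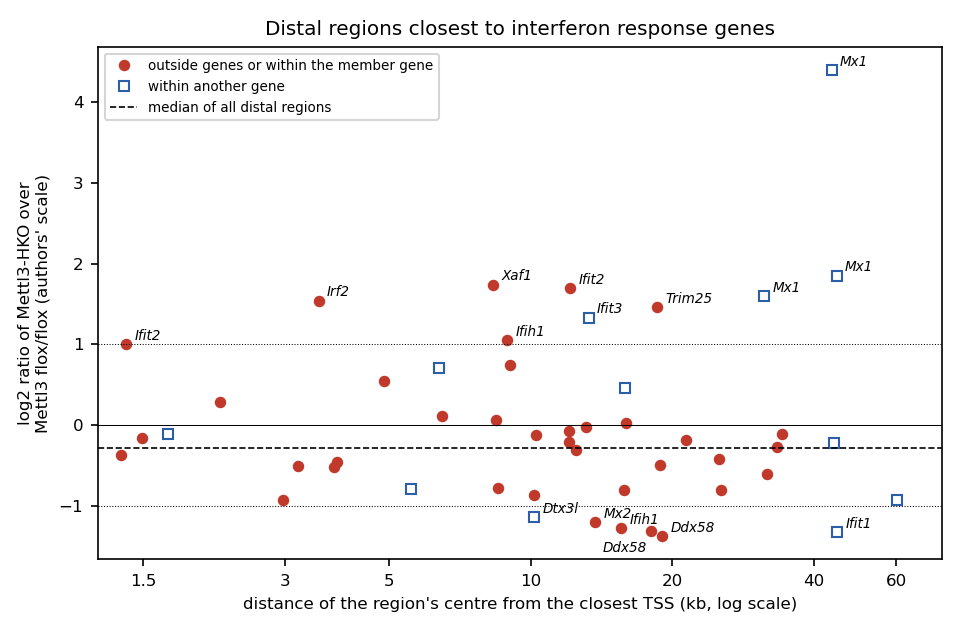
Each point is 1 of 49 distal regions, with its distance from the closest TSS in kb on a log x axis and its log2 ratio on the y axis, dotted lines at 2-fold, and open squares for regions within another gene. Names are given for the 10 regions at least 2-fold higher and the 6 at least 2-fold lower, and the point at 4.39 is a region in *Bace2* closest to *Mx1*.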

How the data were processed

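ATAC-seq of liver was analysed for 1 *Mettl3* flox/flox library and 1 *Mettl3*-HKO library, grouped by the genotype labels. The authors trimmed adaptors with skewer, aligned reads with BWA to GRCm38 (per the submitters' processing notes), filtered for mapping quality, proper pairing and nuclear chromosomes, and ran MACS2 on each library with duplicates kept. The counting method is not given in the sources used here. The authors deposited the raw count of each library per region, the RPM (count plus 1, scaled to the library total), a fold enrichment ratio over the genome mean, and their own log2 ratio. The last 2 hold the authors' derived comparison or were not needed and were not used, except that the log2 ratio recomputed from counts differed from the deposited log2 value by at most 1.32e-05.

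Of 74821 rows, 5272 repeated a region and were dropped. Starts count from 1. Where a gene had several promoter regions, the strongest by summed RPM was used. Log2 ratios have 1 read added. The 95% Clopper-Pearson method was applied to the *Mettl3*-HKO share of a region's counts, and reads without molecular identifiers are not independent, so they are too narrow. Promoter regions had a median of 370 and 265 counts. No p-value is given, since there is 1 library per group. All 38 members are accounted for. Distal regions named are the 5 highest and 5 lowest with at least 40 counts, with a few others named after their values were seen. Of the pathway list, the 4 highest and 4 lowest with at least 40 counts, and genes singled out after their values were seen, are named, except 1 gene that is not reported here. The members and lists were chosen with earlier results of these data known. The scripts were tested on simulated data. Computations ran in Python 3.11.15 (scipy 1.17.1, numpy 2.4.6, pandas 2.3.3), with plots from matplotlib 3.10.9.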

Additional observations from a re-analysis of the deposited data

How the results depend on the processing

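No paired analysis was possible because each group is 1 library. The scaling decides the sign of the medians. The median log2 ratio of the member promoters was 0.37 after centring on all regions, 0.56 on all promoter regions and 0.64 on the strongest 10% of promoter regions, and 0.063 with counts summed over the promoter regions of a gene. Under the same 3 centrings the median of the member distal regions was 0.20, 0.38 and 0.47, that of the other pathway genes −0.041, 0.15 and 0.23, and that of genes with an ISRE core −0.16, 0.025 and 0.108. Of the members, 4, 10 and 11 turned from below to above 0. The ISRE median, −0.54 over 208 genes with the members included, was −0.55 with a promoter window of 2 kb and −0.56 with summed counts.

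Member promoters at least 2-fold higher numbered 9, 11 and 11 under the 3 centrings, beside 6.90%, 9.00% and 9.86% of all promoter regions, 0 with 10 reads added, beside 2.32%, and 9 at 1.5-fold, beside 7.27%. Those lower numbered 5 at 1.5-fold, beside 47.8%, and 1 (*Igtp*) with summed counts. The intervals below and above 0 numbered 12 and 11, and 6 were below and 17 above the median of all regions, beside 46.0% and 17.6% of all promoter regions. Distal regions at least 2-fold lower numbered 0, 0 and 0 under the centrings, beside 8.65%, 5.67% and 4.69% of all distal regions, and 14 at 1.5-fold, beside 36.5%. Those at least 2-fold higher numbered 6 with 10 reads added, beside 10.2%. Alternatives chosen after seeing the data were promoters with a peak in both libraries, which gave a member median of −0.078, 1 member at least 2-fold higher, beside 0.742%, and an ISRE median of −0.56, and leaving out distal regions over another gene, which gave 6 of 37 at least 2-fold higher, beside 15.5% of all such regions. The 23 distal regions with a peak in both libraries, also chosen after seeing the data, gave a median of −0.36, 0 at least 2-fold higher and 2 lower. The count of intervals above the promoter median was 19 to 23 under the other windows, choices of region and filters. Counts of 12 to 60 in *Oasl2*, *Mx1* and *Tap1* leave wide intervals.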

Other observations

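Among genes outside the lists whose promoter window holds an ISRE core and whose region had at least 40 counts, the 5 highest ratios, chosen after their values were seen, were those of *Slfn5*, with 9 counts in *Mettl3* flox/flox and 47 in *Mettl3*-HKO (log2 ratio 2.13, 95% interval 1.203 to 3.46), *Apobec3*, with 18 and 73 (1.83, interval 1.12 to 2.72), *Cxcl14*, with 23 and 73 (1.49), *Ifit3b*, with 75 and 196 (1.24, interval 0.86 to 1.65), and *Plxnc1*, with 28 and 74 (1.24). *Slfn5*, *Apobec3* and *Ifit3b* are themselves known as interferon-induced genes, *Apobec3* encoding a cytidine deaminase that restricts retroviruses. In which library these 5 regions had a peak is not given here, so selection for a high *Mettl3*-HKO count may bear on them. The 5 lowest were *Slc2a12*, with 182 and 41 counts (−2.26), *Frmd7*, with 64 and 17 (−1.99), *Zfp941*, with 88 and 24 (−1.97), *Gfra1*, with 733 and 240 (−1.74), and *Vtn*, which encodes the hepatocyte product vitronectin, with 339 and 121 (−1.61). *Ifit3b* is a close copy of *Ifit3*, so the assignment of reads between them is uncertain.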
